A study of Homo sapiens with 6 samples.

Results

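The MHC class I and peptide loading genes examined here are HLA-B, HLA-C, HLA-E, HLA-F, HLA-G, B2M, TAP1, TAP2 and TAPBP. Their members were all probes that the platform annotation assigns to 1 of these 9 gene symbols, which gave 15 of the 47231 probes on the array, for 9 of the 20046 gene symbols it names. They were followed in HeyA8-MDR cells, a line derived from the human ovarian cancer line HeyA8 and resistant to several drugs, on Illumina bead arrays of total RNA. The siControl group (3 arrays, numbered 1, 2 and 4) received a control siRNA and the siGRAMD1B group (3 arrays, numbered 2, 3 and 4) an siRNA against GRAMD1B, which encodes a sterol transfer protein of the endoplasmic reticulum. The labels give neither the siRNA dose nor the time after treatment. Nothing in them tells whether each array had a culture of its own, so the p-values cover the spread between arrays, possibly a technical one. All cells belong to this 1 line, and the labels do not say which chemical form the siRNAs had.

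MHC class I molecules carry short peptides from inside the cell to its surface, where cytotoxic T cells and natural killer cells read them. The proteasome cuts proteins into peptides, the TAP1 and TAP2 transporter moves these into the endoplasmic reticulum, and tapasin, the product of TAPBP, holds an empty heavy chain and its light chain, beta-2 microglobulin, at the transporter until a fitting peptide is bound. Promoters of this pathway are known to respond to interferon regulatory factors, NF-kB and an enhanceosome that contains NLRC5, and the pathway is often reduced in tumours.

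Of the 9 genes, only TAP1 rose in cells treated with siGRAMD1B, 1.37-fold (log2 difference 0.46 ± 0.10 SE, limma adjusted p = 0.0078), and none fell. The TAP1 call was kept in 13 of 16 alternatives. It was the 1 call among 14 tested member probes, a share of 7.14%, where 7.09% of all tested probes were called. The members were thus called about as often as probes in general. The single probes of HLA-B and HLA-G and the brighter probes of HLA-F and TAPBP had higher means with siGRAMD1B, between 0.27 and 0.38 on the log2 scale, and did not pass the threshold, an adjusted p under 0.05. HLA-E and the brighter TAP2 probe had lower means, which did not pass either. The light chain gene B2M, with signals near the top of the array's range, differed by 0.10 and 0.11 at its probes. All log2 differences are siGRAMD1B minus siControl, and levels are normalized log2 intensities.

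Promoter sequences are shown for the gene that rose, for its partner TAP2 and the adaptor gene TAPBP, and for a heavy chain and the light chain, so that the elements known to act on this pathway can be compared between them. Each window holds 300 bases, 250 before and 50 after the start in the RefSeq table (GRCh38.p14), 5′ to 3′. Windows were found for 8 of the 9 genes, the exception being HLA-E. Capitals mark matches on either strand to the NF-kB consensus, to the interferon regulatory factor element AANNGAAA, to TGACG, the core of the cyclic AMP response element, and to CCAAT, the Y box.
TAP1 (GRCh38.p14, chr6:32853655-32853954, minus strand): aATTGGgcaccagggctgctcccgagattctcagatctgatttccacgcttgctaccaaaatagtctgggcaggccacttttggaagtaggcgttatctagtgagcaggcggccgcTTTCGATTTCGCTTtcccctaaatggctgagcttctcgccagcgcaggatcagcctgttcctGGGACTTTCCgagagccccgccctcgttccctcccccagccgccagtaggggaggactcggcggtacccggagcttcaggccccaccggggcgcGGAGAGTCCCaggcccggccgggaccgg
TAP2 (GRCh38.p14, chr6:32838690-32838989, minus strand): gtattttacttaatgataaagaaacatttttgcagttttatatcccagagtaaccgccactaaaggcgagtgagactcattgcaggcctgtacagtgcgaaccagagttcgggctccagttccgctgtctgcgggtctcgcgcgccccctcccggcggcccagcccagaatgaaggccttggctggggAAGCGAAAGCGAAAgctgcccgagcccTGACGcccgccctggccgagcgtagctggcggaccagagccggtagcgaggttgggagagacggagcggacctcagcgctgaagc
TAPBP (GRCh38.p14, chr6:33314029-33314328, minus strand): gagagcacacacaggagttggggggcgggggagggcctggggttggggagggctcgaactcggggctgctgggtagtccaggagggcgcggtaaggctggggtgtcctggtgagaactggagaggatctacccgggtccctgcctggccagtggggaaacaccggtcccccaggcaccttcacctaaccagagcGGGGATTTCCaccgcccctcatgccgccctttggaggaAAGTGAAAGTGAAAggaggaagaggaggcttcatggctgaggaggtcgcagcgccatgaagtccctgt
HLA-B (GRCh38.p14, chr6:31357130-31357429, minus strand): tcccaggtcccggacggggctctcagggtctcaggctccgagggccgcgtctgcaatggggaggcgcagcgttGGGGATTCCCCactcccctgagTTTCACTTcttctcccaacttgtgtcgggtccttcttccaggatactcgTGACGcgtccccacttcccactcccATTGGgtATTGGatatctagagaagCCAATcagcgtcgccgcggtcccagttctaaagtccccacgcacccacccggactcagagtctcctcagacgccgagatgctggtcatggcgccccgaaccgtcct
B2M (GRCh38.p14, chr15:44711267-44711566, plus strand): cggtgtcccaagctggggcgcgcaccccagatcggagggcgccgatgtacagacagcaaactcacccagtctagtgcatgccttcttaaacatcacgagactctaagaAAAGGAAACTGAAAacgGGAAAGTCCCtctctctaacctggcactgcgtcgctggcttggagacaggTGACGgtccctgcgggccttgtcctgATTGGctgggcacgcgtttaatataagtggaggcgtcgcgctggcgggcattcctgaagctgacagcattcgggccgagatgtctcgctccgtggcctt
The table gives TAP1 a pair of windows, and the one shown belongs to the upstream start. It holds 2 NF-kB matches, 2 matches of the interferon regulatory factor element that overlap by their ends, and 1 CCAAT, while the window of the downstream start (chr6:32852712-32853011, minus strand) holds 0 matches to any of the motifs. The TAP2 window holds 2 overlapping matches of that element and 1 TGACG, with 0 NF-kB matches. TAPBP has 1 NF-kB match and 2 of the interferon regulatory factor element. HLA-B has 2 NF-kB matches that overlap each other, 1 interferon regulatory factor element, 1 TGACG and 3 CCAAT, and B2M has 1, 2, 1 and 1 of these in the same order. No 2 different motifs overlapped in these windows. Among 35116 windows of this length in the table, 11.3% held an NF-kB match, 22.8% the interferon regulatory factor element, 24.6% TGACG and 34.6% CCAAT. The upstream TAP1 start lies 488 bases from that of PSMB9, an immunoproteasome gene transcribed in the opposite direction, and their windows share 13 bases. The downstream TAP1 start lies 1431 bases from it, with 0 bases shared. A match is a description of letters and not a site of binding in these cells.

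The gene targeted by the siRNA, GRAMD1B, was read by 1 dim probe with levels of 6.42, 6.41 and 6.57 in siControl and 6.26, 6.23 and 6.17 in siGRAMD1B. Its groups did not overlap, and a log2 difference of -0.25 (SE 0.10) missed the threshold (limma adjusted p = 0.15). For GRAMD1B the difference was -0.43 with an offset of 16, -0.17 with no background correction and -0.16 with the deposited normalized values, and it passed in none of 15 alternatives. Median intensities before normalization ran from 102.7 to 128.8 over the 6 arrays and the lowest values from 71.7 to 89.8. Of the carcinoma line markers, the brightest probes of VIM, KRT8, KRT7 and PAX8 had means at the 100th, 95.8th, 94.0th and 92.3rd percentile of all probes, and that of KRT18 at the 80.4th. Dimmer were WT1, with its brightest probe at the 69.6th, the EPCAM probes, between the 40.8th and 57.7th, and MUC16, at the 31.6th and too dim to be tested. The array median was 6.27. Of 11 leukocyte markers 10 had a probe, and the mean level of these 10 ran from 6.81 to 6.89 in siControl and from 6.81 to 6.90 in siGRAMD1B. PTPRC, CD3D and CD3E, which define leukocytes and T cells, had means of at most 6.19 in either group. The brightest probes of FCGR3A, CD14, ITGAM, LYZ and MS4A1 had siControl means of 6.78, 6.66, 6.53, 6.44 and 6.29, and the NKG7 probe 6.19. The mean over the 10 markers includes CD68, whose brightest probe had a siControl mean of 11.41. CD68, a lysosomal glycoprotein used as a macrophage marker, was bright in these cells and rose at 1 of its 3 tested probes (0.37, limma adjusted p = 0.023), and its part in the results was not tested. With 3 arrays a group precision is limited, and fewer cells and less RNA per cell cannot be told apart in such bulk samples.

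Of the 15 member probes, 14 were bright enough to be tested, and 1 HLA-C probe was not. At an adjusted p under 0.05 (limma, over all 28338 tested probes) 1 member probe was higher, 0 were lower and 13 did not pass. This is 7.14% of the tested member probes, where 7.09% of all tested probes were called, 3.89% higher and 3.21% lower. At an unadjusted p under 0.05, 5 member probes were higher and 0 lower. Of all 28338 tested probes, 2845 were higher and 2712 lower at that cut. The groups did not overlap at 7 of the 14 probes, 5 higher and 2 lower with siGRAMD1B, where 24.1% of all tested probes had groups that did not overlap, 12.3% higher and 11.8% lower. All 7 lay among the 9 member probes above the 75th percentile of mean level. Of all tested probes above that percentile, 36.5% had groups that did not overlap and 13.9% were called, against 1 of the 9 bright member probes. The median log2 difference of the 14 probes was 0.10, and that of all tested probes 0.00. Among the 14, 9 differences were above 0 and 5 below.

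**Figure D1:**
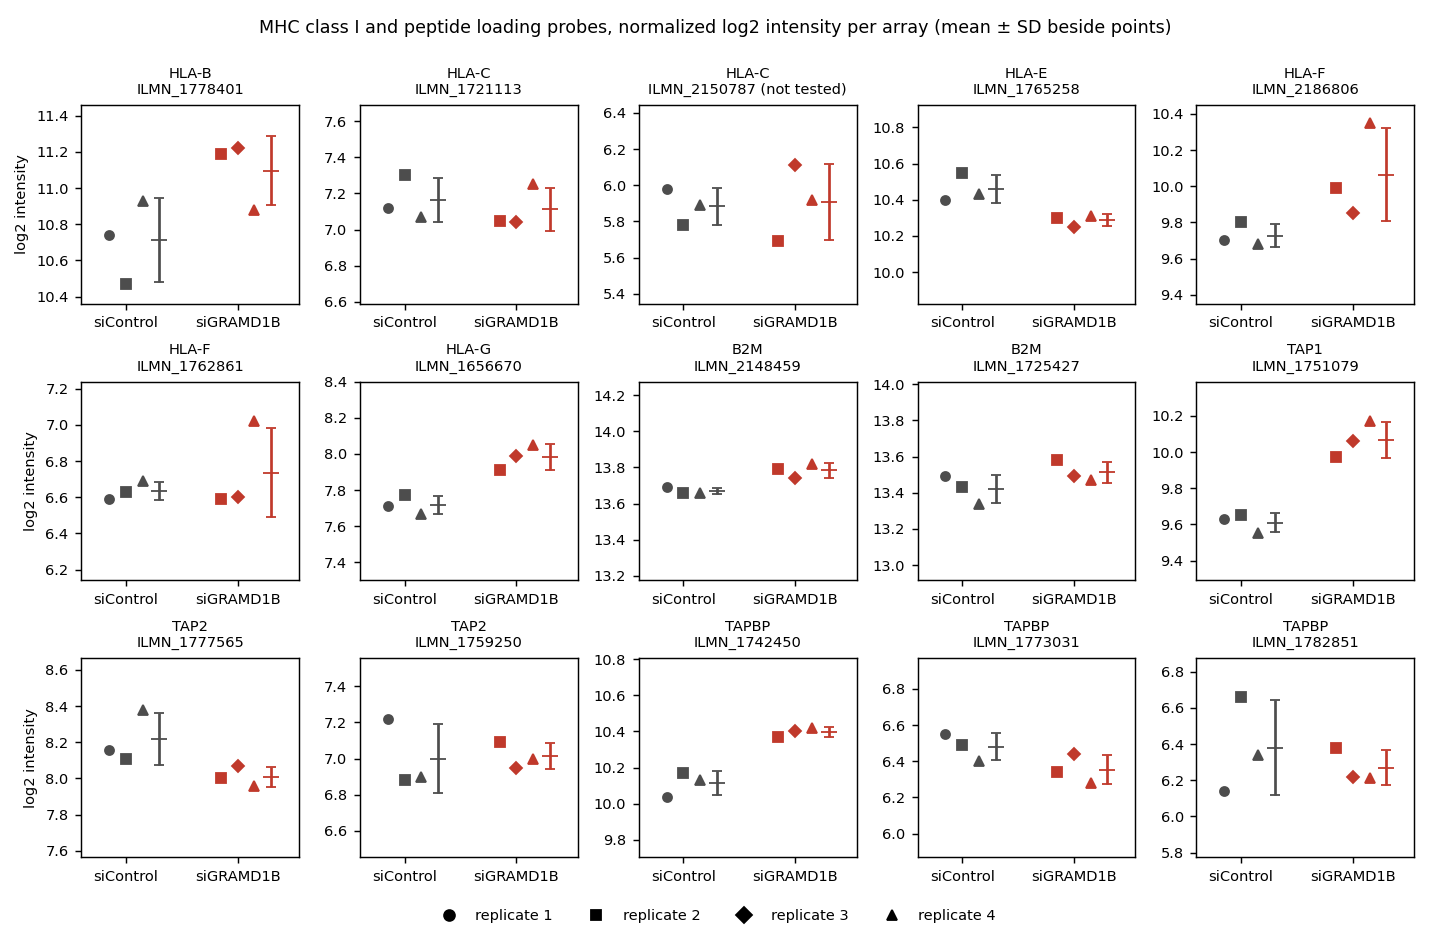
Normalized log2 intensity (vertical axes, each spanning the same 1.1 log2 units) of the 15 member probes in the siControl arrays (grey) and the siGRAMD1B arrays (red). Each symbol is 1 array, its shape gives the replicate number, and the bar beside the points is the mean ± SD of 3 arrays. TAP1, HLA-G, TAPBP (ILMN_1742450), HLA-F (ILMN_2186806) and B2M (ILMN_2148459) are higher in every siGRAMD1B array than in any siControl array. HLA-E and TAP2 (ILMN_1777565) are lower in each, and the other probes, HLA-B among them, overlap.

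TAP1 encodes one chain of the peptide transporter. Its probe (ILMN_1751079) had levels of 9.63, 9.65 and 9.55 in siControl arrays 1, 2 and 4 and of 9.97, 10.06 and 10.17 in siGRAMD1B arrays 2, 3 and 4. The groups did not overlap, and the gap between them exceeded the range within either. The mean went from 9.61 ± 0.05 to 10.07 ± 0.10 (SD, n = 3), a level at the 90.6th percentile of all probes. The log2 difference of 0.46 had a 95% confidence interval from 0.25 to 0.66, or 1.19-fold to 1.58-fold. An exact 2-sided permutation test over the 6 arrays gave p = 0.10, the smallest that 3 arrays against 3 allow. Ordered by size, the rise stood 607th among the 1101 probes called higher. In the authors' deposited table the difference was 0.45. The call was lost with a background offset of 16 (limma adjusted p = 0.0676), with the ordinary test per probe (adjusted p = 0.0852) and with the replicate number as a block (adjusted p = 0.0581), while the log2 difference stayed between 0.41 and 0.50 in all 16 alternatives.

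TAP2, the other chain of the transporter, was read by a pair of probes annotated to different transcripts. The brighter (ILMN_1777565, NM_000544) had 8.16, 8.11 and 8.38 in siControl and 8.00, 8.07 and 7.96 in siGRAMD1B. Here the siGRAMD1B values were the lower ones throughout, close to that of siControl array 2. The log2 difference was -0.21 ± 0.10 (SE), with a 95% confidence interval from -0.42 to 0.01 (limma adjusted p = 0.28). The dimmer probe (ILMN_1759250, NM_018833) differed by 0.02, with an interval from -0.21 to 0.24. Since the transporter needs both chains, the log2 ratio of the TAP1 signal to that of the brighter TAP2 probe was followed within each array. This ratio averaged 1.39 ± 0.19 in the controls and 2.06 ± 0.13 after GRAMD1B siRNA (SD, n = 3), and it was higher in every siGRAMD1B array than in any siControl array. The change of 0.66 had an exact permutation p of 0.10 (2-sided, the smallest possible; 0.15 when adjusted over 3 such gene pairs, which were chosen after the values were seen). The ratio is a description of these arrays, taken with the TAP2 probe whose mean was lower, and it does not give the amount of either chain.

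TAPBP encodes tapasin, which links the transporter to the heavy chain. Its bright probe (ILMN_1742450, NM_003190) had 10.04, 10.17 and 10.13 in siControl and 10.37, 10.40 and 10.42 in siGRAMD1B. All siGRAMD1B values were above the controls', and the siGRAMD1B arrays lay close together. The log2 difference was 0.29 ± 0.10 (SE), with an interval from 0.08 to 0.49, and did not pass (limma adjusted p = 0.084). It passed with no background correction (adjusted p = 0.0267), with the deposited normalized values (adjusted p = 0.0226) and with a filter at the 70th percentile (adjusted p = 0.0415). Further TAPBP probes, annotated to the transcripts NM_172208 and NM_172209, lay near the array median with siControl means of 6.48 and 6.38, and differed by -0.13 and -0.11 (adjusted p = 0.55 and 0.70). The ratio of TAP1 to the bright TAPBP probe changed by 0.17 (exact permutation p = 0.10, 2-sided, adjusted p = 0.15).

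**Figure D2:**
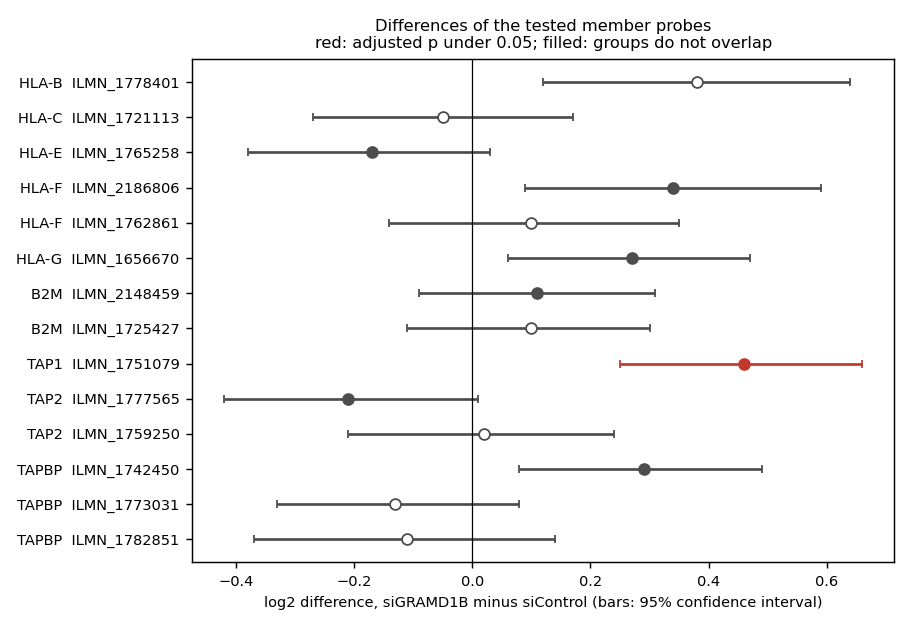
Log2 difference, siGRAMD1B minus siControl (horizontal axis), of the 14 tested member probes (vertical axis), with bars for the 95% confidence interval of the moderated fit. Red marks an adjusted p under 0.05, reached by TAP1 alone, and filled points mark the 7 probes whose groups do not overlap. The intervals of HLA-B, the brighter HLA-F probe, HLA-G and the bright TAPBP probe lie above 0 without adjustment over all probes.

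Heavy chain values pointed in both directions. HLA-B, a classical class I gene, was read by 1 probe (ILMN_1778401) with 10.74, 10.47 and 10.93 in siControl and 11.19, 11.22 and 10.88 in siGRAMD1B. Array 4 of siGRAMD1B lay below array 4 of siControl, so the groups overlapped. The log2 difference of 0.38 ± 0.12 (SE), 1.30-fold with an interval from 1.09 to 1.56, did not pass (limma adjusted p = 0.075). It passed without siControl replicate 4 (0.49, adjusted p = 0.0249), without siGRAMD1B replicate 4 (0.49, adjusted p = 0.0468), with trend and robust options (adjusted p = 0.0431) and with array weights (adjusted p = 0.0432), and it was 0.26 without siControl replicate 2. HLA-C, the other classical gene with probes here, had 7.12, 7.30 and 7.07 in siControl and 7.05, 7.04 and 7.25 in siGRAMD1B at the probe that was tested (ILMN_1721113). These groups overlapped, with a difference of -0.05 and an interval from -0.27 to 0.17 (adjusted p = 0.85). The other HLA-C probe (ILMN_2150787) lay at the floor, at the 0.8th percentile of all probes, with levels from 5.69 to 6.11.

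HLA-E presents leader peptides of other class I chains to natural killer cell receptors. Its probe (ILMN_1765258) had 10.40, 10.55 and 10.43 in siControl and 10.30, 10.25 and 10.31 in siGRAMD1B. Every siGRAMD1B array was lower than every siControl array, but the difference of -0.17 ± 0.10 (SE), with an interval from -0.38 to 0.03, did not pass (limma adjusted p = 0.36). HLA-G, a non-classical chain best known from the placenta, had 7.71, 7.77 and 7.67 in siControl and 7.91, 7.99 and 8.05 in siGRAMD1B (ILMN_1656670). Here the groups were separate, with a difference of 0.27 ± 0.10 (SE) and an interval from 0.06 to 0.47 (adjusted p = 0.12).

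HLA-F is a non-classical chain that can reach the surface without peptide. Its brighter probe (ILMN_2186806, NM_018950) had 9.70, 9.80 and 9.68 in siControl and 9.99, 9.85 and 10.35 in siGRAMD1B. These groups did not overlap, and siGRAMD1B array 4 lay well above the other arrays. The difference of 0.34 ± 0.12 (SE) did not pass (limma adjusted p = 0.10) and was 0.20 without siGRAMD1B replicate 4 (adjusted p = 0.43). The dimmer probe (ILMN_1762861, NM_001098479) had 6.59, 6.63 and 6.69 in siControl and 6.59, 6.60 and 7.02 in siGRAMD1B, so that the same array 4 was again the highest. Its difference was 0.10 (adjusted p = 0.71), and it was -0.04 without siGRAMD1B replicate 4. HLA-B and HLA-F thus placed siGRAMD1B array 4 at opposite ends of its group.

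The heavy chain genes are close relatives, vary between people and have near-identical pseudogenes, so a probe may read more than its named gene, and probe sequences were not used here. The pseudogene HLA-H, read by 2 probes, had a bright one (ILMN_2130441) with 10.43, 10.50 and 10.60 in siControl and 10.74, 10.90 and 10.89 in siGRAMD1B. Its groups did not overlap at this probe, and the difference of 0.33 ± 0.10 (SE) did not pass (limma adjusted p = 0.053). Its other probe (ILMN_1666078) differed by 0.15 (adjusted p = 0.57).

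B2M encodes the light chain shared by all these molecules. The probe ILMN_2148459 had 13.69, 13.66 and 13.66 in siControl and 13.79, 13.74 and 13.82 in siGRAMD1B. A further probe, ILMN_1725427, had 13.49, 13.43 and 13.34 in siControl and 13.58, 13.49 and 13.47 in siGRAMD1B. Groups were separate at the first and overlapped at the second, with means at the 99.2nd and 99.0th percentile of all probes. The differences of 0.11 and 0.10 had intervals from -0.09 to 0.31 and from -0.11 to 0.30 (limma adjusted p = 0.59 and 0.66). As fold changes, these intervals ran from 0.941 to 1.24 and from 0.928 to 1.23. With the replicate number as a block, the difference was 0.14 at either probe, with a larger SE of 0.15.

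Genes that supply or finish the peptide showed 1 call in 22 tested probes, where 7.09% of all tested probes were called. Calreticulin, the chaperone that holds the heavy chain in the loading complex, rose at its CALR probe, from 11.01 ± 0.10 to 11.50 ± 0.16 (SD, n = 3), a log2 difference of 0.49 (limma adjusted p = 0.0079). The call for CALR was lost without siGRAMD1B replicate 4 (0.41, adjusted p = 0.058), with an offset of 16 (adjusted p = 0.0814) and with the ordinary test per probe (adjusted p = 0.155). The other 8 tested probes of trimming, folding and editing partners did not pass. Among them the trimming peptidase gene ERAP2 differed by -0.30 and 0.14 at its probes and TAPBPL, a relative of tapasin that edits peptides, by 0.22. In the immunoproteasome and its activator PA28, 0 of 10 tested probes were higher and 0 lower (limma; at an unadjusted p under 0.05, 2 were higher and 0 lower). PSMB8, a catalytic subunit, came nearest with 0.29 (adjusted p = 0.087) at 1 of 4 tested probes. The brighter probe of PSMB9, which lies head to head with TAP1, had 7.50, 7.63 and 7.72 in siControl and 7.90, 7.58 and 8.23 in siGRAMD1B. These groups overlapped, with a difference of 0.28 (adjusted p = 0.25), and the ratio of TAP1 to PSMB9 changed by 0.17 (exact permutation p = 0.50, 2-sided). For the constitutive subunits that the immunoproteasome replaces, 0 of 3 probes passed in either direction (unadjusted, 0 higher and 1 lower), with -0.31 for PSMB5 (adjusted p = 0.061) and -0.20 for PSMB7 (adjusted p = 0.28).

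Among regulators of class I promoters, 0 of 19 tested probes were higher and 1 lower (limma; at an unadjusted p under 0.05, 0 were higher and 5 lower). The lower one was a probe of CREB1 (ILMN_2334242), a factor that binds the cyclic AMP response element, which fell by 0.38 on the log2 scale (limma adjusted p = 0.035). The other 4 tested CREB1 probes also had lower means, with differences of -0.22, -0.22, -0.11 and -0.05, and did not pass. The CREB1 call was lost in 9 of 16 alternatives. IRF1, an interferon regulatory factor known to act on TAP1, differed by 0.03 with an interval from -0.17 to 0.24. The single NLRC5 probe, for the transactivator of class I genes, was too dim to be tested. Of 11 tested probes for interferon receptors and their signalling, 1 was higher and 0 lower (unadjusted, 1 and 2). The call belonged to IFNGR2, a chain of the interferon gamma receptor, whose levels of 10.66, 10.66 and 10.47 in siControl stood against 11.26, 11.36 and 11.12 in siGRAMD1B. IFNGR2 rose by 0.65 ± 0.10 (SE, limma adjusted p = 0.00063), and the groups were far apart. The call for IFNGR2 was lost with the ordinary test per probe (adjusted p = 0.0894). Of 29 tested probes of interferon-stimulated genes, 0 were higher and 1, for the guanylate-binding protein gene GBP1, was lower (-0.34, limma adjusted p = 0.042). At an unadjusted p under 0.05, 4 of them were higher and 7 lower. The other GBP1 probe differed by -0.22 (adjusted p = 0.35), and the GBP1 call was lost in 11 of 16 alternatives.

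**Figure D3:**
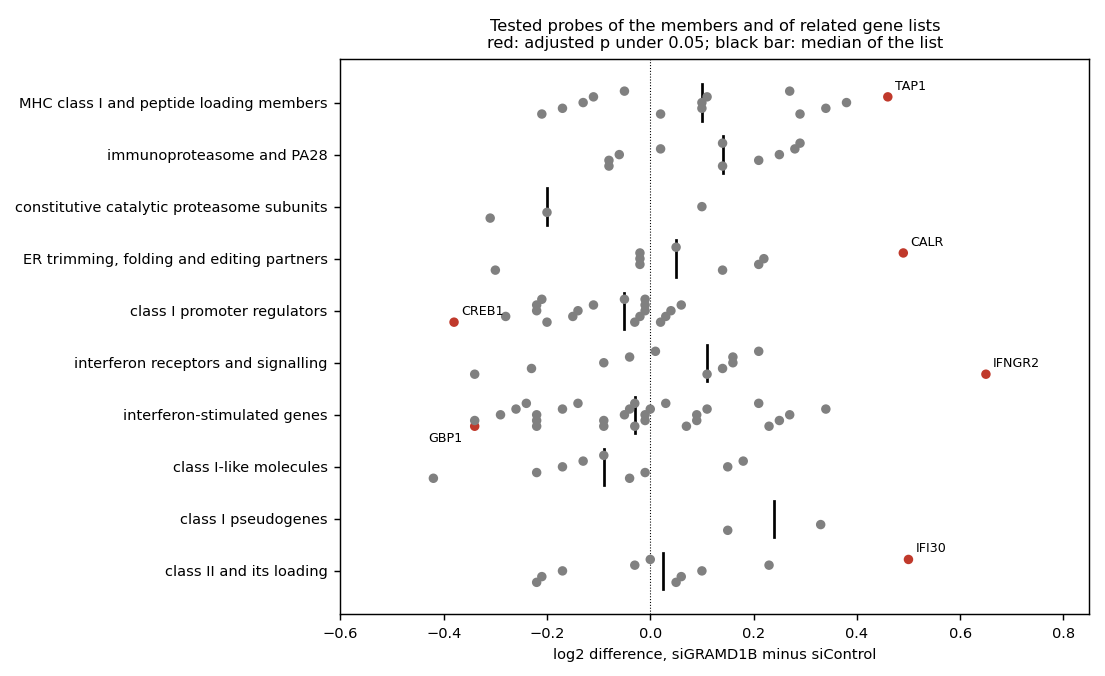
Log2 difference, siGRAMD1B minus siControl (horizontal axis), of each tested probe of the members and of 9 related gene lists (rows). Each point is 1 probe, red and named where the adjusted p was under 0.05, and the black bar is the median of the list. Calls are single genes: TAP1, CALR, IFNGR2 and IFI30 to the right of 0, and CREB1 and GBP1 to the left.

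Class I-like molecules, which do not present ordinary peptides, had 0 of 9 tested probes higher and 0 lower (limma, and unadjusted 0 higher and 1 lower). PROCR, the endothelial protein C receptor, differed by -0.42 (adjusted p = 0.052) and MICA, a stress ligand for natural killer cells, by -0.22 (adjusted p = 0.28). Of 10 tested probes of class II genes and their loading, 1 was higher and 0 lower (unadjusted, 1 and 1). It read IFI30, a thiol reductase of the endosomes, which rose from 6.77 ± 0.09 to 7.26 ± 0.09 (SD, n = 3, log2 difference 0.50, adjusted p = 0.0046). The call for IFI30 was lost with the ordinary test per probe (adjusted p = 0.0919). The class II chain HLA-DRA differed by -0.22 and -0.17 at its probes, CD74, the class II chaperone, by 0.05 at its tested probe and CIITA, the master regulator of class II genes, by -0.21 at a probe near the floor. Over all these lists 3 of 102 tested probes were higher and 2 lower, with a median difference of -0.01. Of all tested probes, 3.89% were called higher and 3.21% lower. At an unadjusted p under 0.05 (limma), 10 of the 102 were higher and 18 lower, against 2845 and 2712 of all 28338.

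The mean profile of the 9 genes, each by its brightest tested probe and as deviation from its own mean, was -0.10, -0.07 and -0.07 in siControl and 0.05, 0.06 and 0.12 in siGRAMD1B. Among other genes, the probes nearest to this profile over the 6 arrays were those of IL12RB1 (root mean square difference 0.0103), MRPS21 (0.0211), MRPL32 (0.0221) and ME3 (0.0228), of 19594 compared, whose median was 0.149. None of these 4 passed the threshold (limma adjusted p between 0.28 and 0.52).

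**Figure D4:**
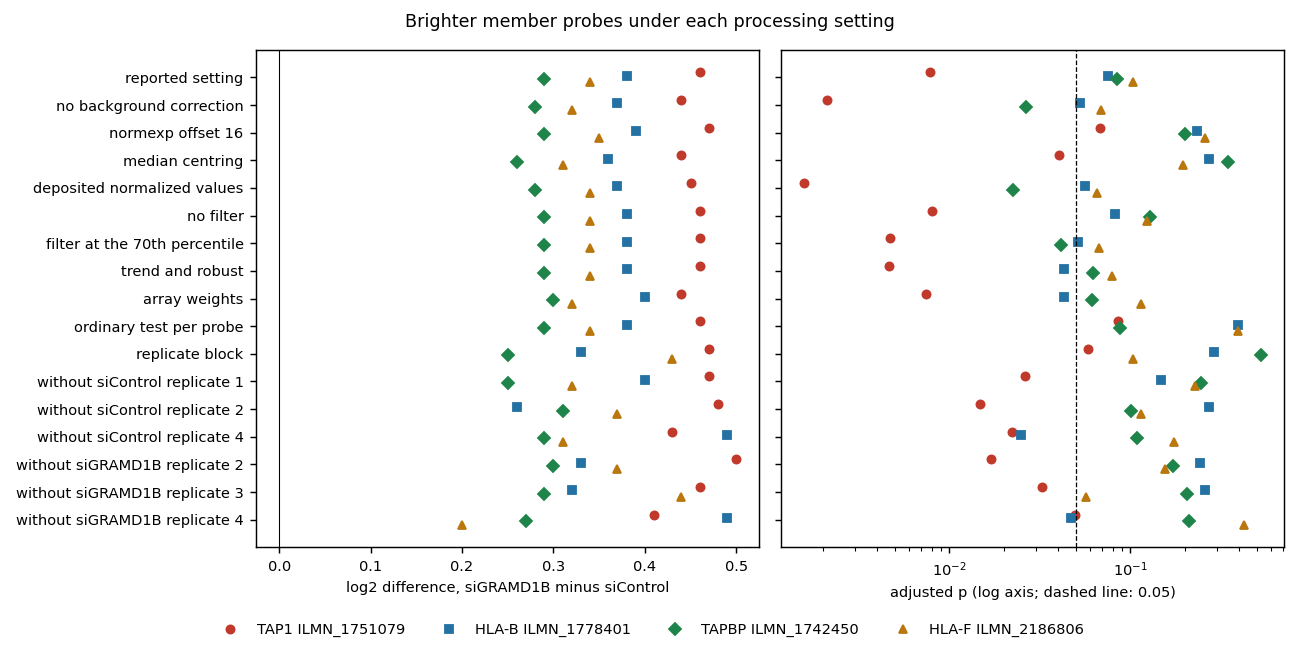
Log2 difference (left) and adjusted p on a log axis (right) of the TAP1 probe, the HLA-B probe and the brightest TAPBP and HLA-F probes under the reported setting and 16 alternatives (rows). The dashed line marks an adjusted p of 0.05. TAP1 lies left of it in 13 of the 16 alternatives, and the differences of these 4 probes stay above 0 in each.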

How the data were processed

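Each array received labelled cRNA made from 500 ng of total RNA, per the labels' protocols. The submitters' processing notes name BeadStudio as the software. The deposited table holds linear intensity values for 47231 probes, without detection p-values, neither normalized nor background-subtracted as far as the values show. Its header holds 1 name without values, so the array names were shifted back by 1 field, and each column ranked the probes like the column of the same array in the second table (Spearman's rho 1.00, at most 0.854 for another array). The second deposited table holds the authors' normalized log2 values, with 1 distribution in all columns, by a method not given in the sources used here.

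Intensities were corrected with limma 3.58.1 (R 4.3.3) by normexp with an offset of 50, quantile-normalized and taken to log2, so that changes of dim probes are understated. The 28338 probes above the 40th percentile of mean level (6.16) were tested with lmFit and eBayes (2-sided, 17.9 degrees of freedom), with Benjamini-Hochberg adjustment over all of them. The fit and its adjustment were tested on simulated log2 values, without the background correction, normalization and filter. The changes planted there were larger than the differences of the members, so smaller ones were not covered. Of all probes, 30113 had 1 gene symbol in the platform annotation, 8 had several and 17110 had none there. Columns of other samples numbered 0.

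The members, lists and settings were chosen with earlier results of these data known. Named were all probes of the members, GRAMD1B, list genes past the threshold, up to 2 genes with the smallest p of each list without one, and the 4 probes nearest the members' profile. Other genes named for their role in the pathway (IRF1, NLRC5, ERAP2, TAPBPL, PSMB9, HLA-DRA, CD74, CIITA, CD68 and the markers) were chosen after their values were seen. Alternatives were other background, normalization, filter and variance settings, the deposited values, the replicate number as a block, and leaving out each array.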

Additional observations from a re-analysis of the deposited data

How the results depend on the processing

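The count of member probes called higher, 1 as reported, was 2 with no background correction, the deposited normalized values or the filter at the 70th percentile (TAP1 and TAPBP) and with trend and robust options or array weights (TAP1 and HLA-B). It was 0 (limma unless stated, with counts at an unadjusted p under 0.05 in brackets) with the offset of 16 (5), the ordinary test per probe (4) and the replicate block (3), and with 1 array left out it ran from 1 to 2. The count called lower was 0 in all 16 alternatives. For the related lists, the higher count of 3 became 6 with no background correction, 6 with the deposited values, 5 with the stricter filter and 0 with the ordinary test (unadjusted 8), and ran from 2 to 4 with 1 array left out. Their lower count of 2 became 4 with no background correction or the deposited values, 1 without a filter, 6 with the stricter filter and 5 with trend and robust options. It became 0 with the offset of 16 (unadjusted 11), median centring (11), the ordinary test (9) and the replicate block (5), and ran from 0 to 2 with 1 array left out. The median member difference of 0.10 was 0.05 with median centring and 0.14 with the replicate block, and ran from 0.06 without siGRAMD1B replicate 4 to 0.12 with 1 array left out. In the block fit TAP1 differed by 0.47 (adjusted p = 0.0581). Only numbers 2 and 4 occur in both groups, and deviations of the same-numbered arrays correlated at 0.02 and -0.15 across probes, so the numbers were not taken as pairs. Between differently numbered arrays of the 2 groups the correlations ran from -0.18 (siControl 2 with siGRAMD1B 3) to 0.19 (siControl 4 with siGRAMD1B 3). Over all tested probes, the counts of 1101 higher and 909 lower fell to 449 and 234 with the offset of 16, 603 and 419 with median centring, 578 and 409 with the block, and 164 and 92 with the ordinary test. Without siControl replicate 1 the lower count was 493, and without each siGRAMD1B array the counts were 673 to 695 and 473 to 495. The cause of these shifts was not tested. Differences of HLA-F ILMN_1762861, TAP2 ILMN_1759250, TAPBP ILMN_1782851 and HLA-C ILMN_1721113, none of them called, changed sign in at least 1 alternative. Dim signal limits what could be seen for the untested HLA-C and NLRC5 probes.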
